A study of Mus musculus with 12 samples.

Results

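The Z-disc genes described here are 10 genes that code for structural proteins of the sarcomere's border: Actn2, Actn3, Ldb3, Myot, Flnc, Tcap, Pdlim3, Pdlim5, Nexn and Synpo2. They were chosen by gene symbol, and all 10 were found among the 23923 genes of the expression files and were among the 12695 genes tested. RNA was sequenced from the tibialis anterior, a fast-twitch muscle of the shin, of 12 mice aged 6 weeks, with 6 mice in each group and 1 library per mouse. Controls were Myf6 cre/+; Smyd1 flox/+ and Smyd1 CKOs were Myf6 cre/+; Smyd1 flox/-, all on a C57BL6/J;129S1/SvImJ background and, by the study's methods, with a Rosa26 YFP reporter allele. Smyd1 codes for a lysine methyltransferase of striated muscle. The Cre sits in the Myf6 locus, which is active in differentiated myofibers, so all 12 mice carried the altered Myf6 allele, controls could lose their floxed copy in fibers as well, and other cells of the muscle kept Smyd1. The question addressed is how the transcripts of the Z-disc differed between the groups.

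The Z-disc anchors the barbed ends of the actin filaments of neighbouring sarcomeres, which are cross-linked there in antiparallel by α-actinin. Titin is bound at the same place and is capped by telethonin. PDZ-LIM proteins dock on α-actinin, and myotilin, filamin C, nexilin and synaptopodin-2 tie actin filaments to the lattice or to the membrane. Mutations in several of these genes cause myofibrillar myopathy or cardiomyopathy.

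Values are FPKM, in which the fragments of a gene are divided by its transcript length and by the size of the library, so that levels can be compared between genes per length. Smyd1 was 37.4 ± 5.64 FPKM (SD, n = 6) in controls and 34.1 ± 4.36 in CKOs, a log2 fold change of -0.13 (SE 0.12, limma, unadjusted P = 0.285, adjusted P = 0.545) as deposited. After median-ratio scaling, explained below, it was -0.32 (95% interval -0.49 to -0.14, limma, unadjusted P = 0.0018, adjusted P = 0.0797), with controls between 36.0 and 42.3 and CKOs between 26.8 and 36.8 scaled FPKM. This value covers the whole gene and does not resolve the floxed part, so it does not check the labels. The labelled tissue carried its own markers in every mouse, with a summed 14532 to 23528 FPKM for 7 fiber genes such as Ckm and Acta1. Control 1 stood apart by its fibroblast markers, which summed to 680 FPKM for 5 genes such as Col1a1, against 177 to 224 in the other controls and 243 to 403 in CKOs. At the unadjusted threshold as deposited, 2 of 5 fibroblast, 2 of 4 Schwann cell and 2 of 3 tested adipocyte markers were higher in CKOs, and none of 6 smooth muscle, 5 endothelial, 4 tendon and 4 macrophage markers was called, where 18.1% of all tested genes were higher. After scaling 1 fibroblast and 1 adipocyte marker were higher, no Schwann cell marker was called, and 1 tendon marker was lower. The part of these cells in the values below was not tested. The files give no read counts, and relative depth, read from the steps between the lowest values, ranged over 1.80-fold. As deposited, the median log2 fold change of all tested genes was 0.18, and the cause of this shift was not tested. The fold changes of the 10 genes and the counts of called genes are therefore also given after median-ratio scaling, which divides each library by the median ratio of its genes to their geometric mean over the libraries and which brought that median to 0.01. In whole muscle, fewer fibers and less RNA per fiber cannot be told apart.

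None of the 10 Z-disc genes differed between the groups at an adjusted P below 0.05, whichever scale was used (limma, Benjamini-Hochberg adjustment over all tested genes). At an unadjusted P below 0.05, Actn2 alone was higher in CKOs on the deposited scale and none was lower, where 18.1% of all tested genes were higher and 1.76% lower (19.9% in either direction). After scaling none was higher, and Actn3 and Synpo2 were lower, where 6.62% of all tested genes were higher and 7.44% lower (14.1% in either direction). The adjusted threshold was passed by 2.02% of all tested genes in the higher and 0.268% in the lower direction as deposited (2.29% in all), and by 0.764% and 0.709% after scaling (1.47% in all). The median log2 fold change of the 10 genes was -0.03 as deposited and -0.22 after scaling. As deposited, 5 of the 10 had a positive log2 fold change, where 77.9% of all tested genes did. After scaling 2 of the 10 had a positive value, where 51.2% of all tested genes did. For none of the 10 did the groups' values separate completely on either scale. All 6 CKOs lay above all 6 controls for 2.23% of all tested genes and below them for 0.189% as deposited, and for 0.788% and 0.74% after scaling.

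**Figure D1:**
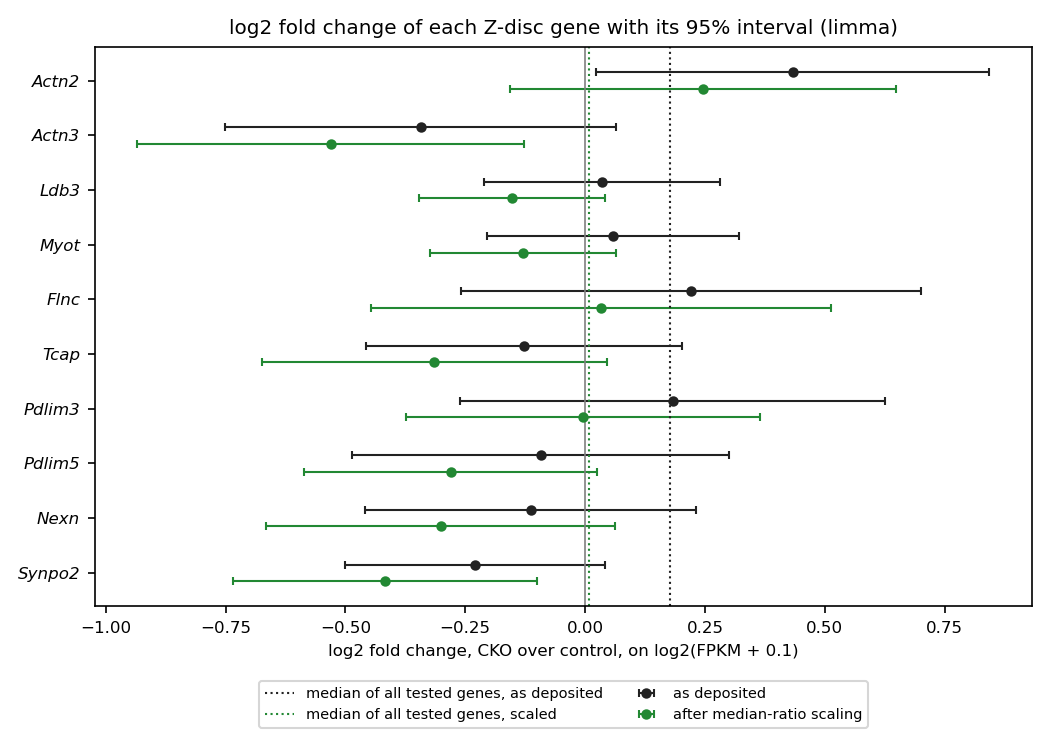
The log2 fold change (CKO minus control) of each of the 10 Z-disc genes with its 95% interval from limma, as deposited and after median-ratio scaling. The interval lies above 0 for Actn2 as deposited, and below 0 for Actn3 and Synpo2 after scaling.

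Per length, Actn3 was the most abundant of the 10 transcripts in controls, with a mean of 659 ± 114 FPKM (SD, n = 6), at place 20 among all tested genes. Tcap followed with 459 ± 62.1, Myot with 273 ± 45.3, Actn2 with 192 ± 40.2, Pdlim5 with 156 ± 50.4 and Ldb3 with 144 ± 21.2 FPKM. Lower levels were measured for Pdlim3 (55.2 ± 17.0 FPKM), Nexn (34.3 ± 4.54), Flnc (30.7 ± 7.55) and Synpo2 (17.0 ± 2.09, place 777). Among neighbours in this order, the control ranges were apart between Tcap and Myot, between Ldb3 and Pdlim3, between Pdlim3 and Nexn, and between Flnc and Synpo2, and overlapped for the other pairs. In CKOs the order by means was the same except that Ldb3 stood above Pdlim5 and Flnc above Nexn, both pairs with overlapping ranges. Myot was above Actn2 in 5 of 6 controls and in 3 of 6 CKOs.

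**Figure D2:**
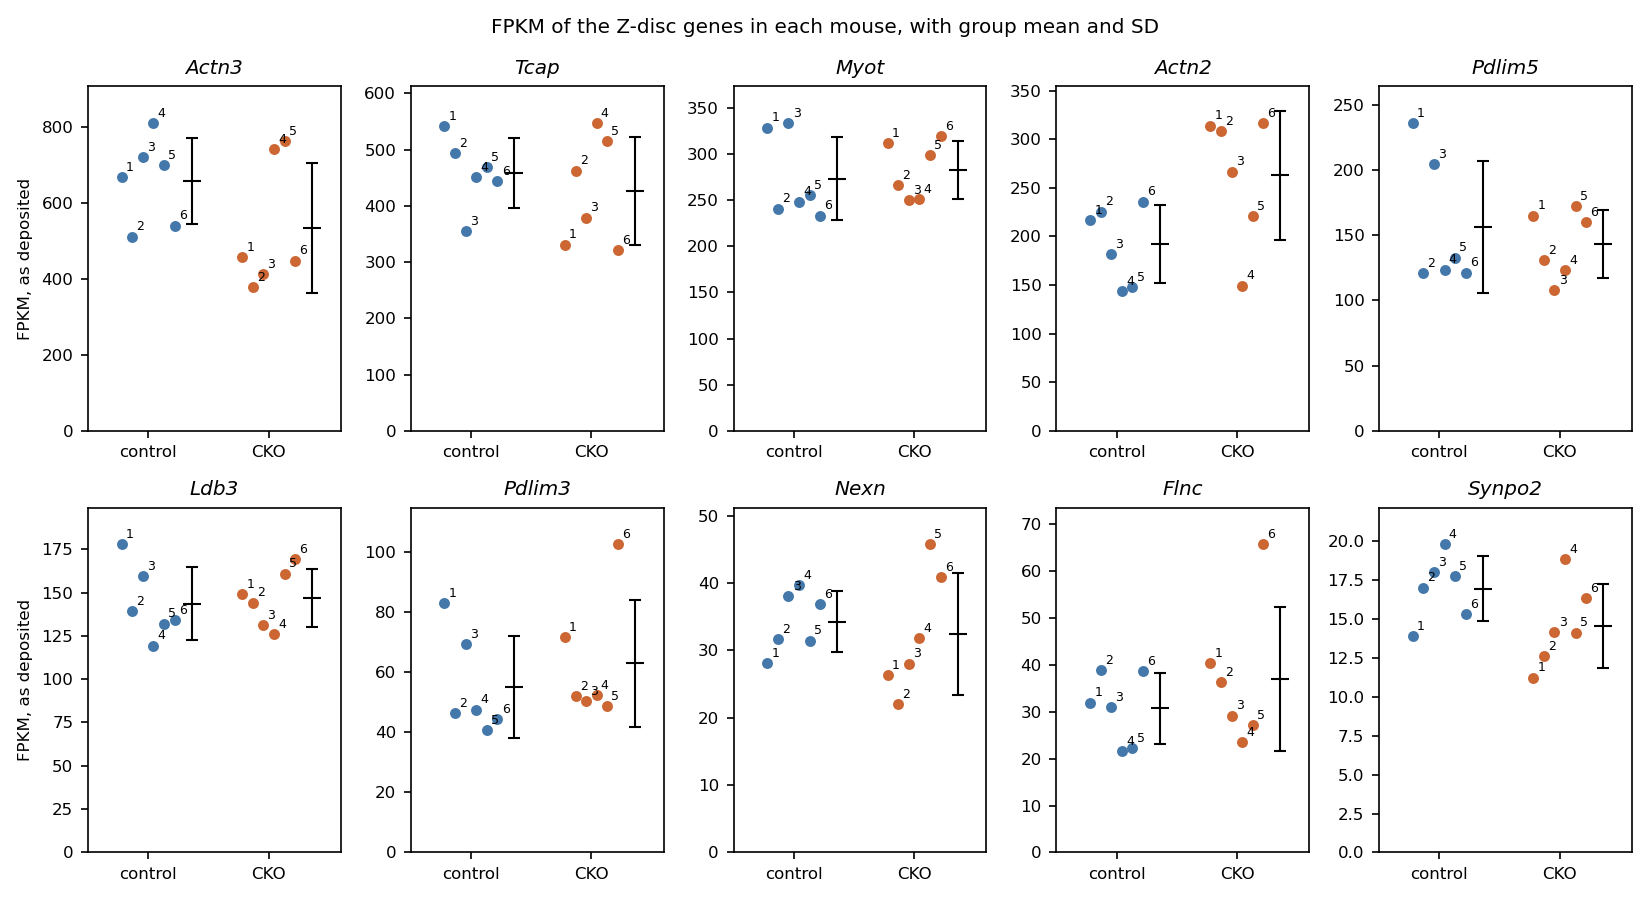
FPKM as deposited of the 10 Z-disc genes in each of the 6 control and 6 CKO mice, with points for mice and lines for the group means with SD. The groups overlap for every gene, and 4 of 6 CKO values lie above all controls for Actn2 and below all controls for Actn3.

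Actn2 codes for the sarcomeric α-actinin that all fiber types use, and Actn3 for the α-actinin of fast, mostly glycolytic fibers. Actn2 lies at chr13:12269426-12340760 on the minus strand and Actn3 at chr19:4861216-4877909 on the minus strand (GRCm38). The promoters of Actn2 and Synpo2 are shown because these genes passed the unadjusted threshold and have an entry in the RefSeq promoter table used here (GRCm38.p6). Actn2 passed it as higher on the deposited scale, and Synpo2 as lower after scaling. Actn3, Myot, Tcap and Nexn had no entry. The E-box (CANNTG) is the general motif of bHLH factors, the myogenic ones among them. The 250 bases before the RefSeq start of Actn2, chr13:12340733-12340982 on the minus strand, hold 3 matches to it, shown in capitals. The innermost match ends 43 bases before the start.
Actn2: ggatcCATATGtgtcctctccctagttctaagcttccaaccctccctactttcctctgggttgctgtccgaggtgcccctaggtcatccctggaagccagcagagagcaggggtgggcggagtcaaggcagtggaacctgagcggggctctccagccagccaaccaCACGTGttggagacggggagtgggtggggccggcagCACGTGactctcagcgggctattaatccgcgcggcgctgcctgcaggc
No match was found there to the motifs named MEF2, CArG and MCAT (CATTCC), searched on both strands. An E-box stood in 66.2% of the 32851 windows of this length in the table. A match describes letters and is not evidence of binding.

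Actn2 ranged in controls from 144 FPKM over a median of 199 to 236, and in CKOs from 149 over 288 to 317. CKO 1, 2, 3 and 6 lay above every control, at 314, 309, 267 and 317 FPKM, and CKO 4 and 5 lay within the control range, at 149 and 221. The group means were 192 ± 40.2 and 263 ± 66.7 FPKM (SD, n = 6 each). As deposited, the log2 fold change was 0.43 (95% interval 0.02 to 0.84, limma, unadjusted P = 0.0395, adjusted P = 0.226). After scaling it was 0.25 (-0.16 to 0.65, unadjusted P = 0.213). The unadjusted call did not hold without control 3, 4 or 5 or without CKO 1, 2, 3 or 6, where limma's unadjusted P lay between 0.0637 and 0.0949. Without control 1 it held, with a log2 fold change of 0.47 (unadjusted P = 0.0325), and without CKO 4 it was 0.59 (unadjusted P = 0.00247).

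Actn3 ranged in controls from 512 FPKM over a median of 684 to 811, and in CKOs from 378 over 453 to 763. The same 4 CKOs, 1, 2, 3 and 6, lay below every control, at 458, 378, 413 and 449 FPKM, while CKO 4 and 5 lay within the control range, at 743 and 763. The means were 659 ± 114 and 534 ± 172 FPKM, and the coefficient of variation was 17.2% in controls and 32.2% in CKOs. The log2 fold change was -0.34 as deposited (-0.75 to 0.07, limma, unadjusted P = 0.0936, adjusted P = 0.329). After scaling it was -0.53 (-0.93 to -0.13, unadjusted P = 0.0133, adjusted P = 0.205), with controls between 599 and 885 and CKOs between 368 and 717 scaled FPKM. Leaving out CKO 4 or CKO 5 took the deposited value to -0.45 (unadjusted P = 0.0292) and to -0.46 (unadjusted P = 0.0222).

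The ratio of the 2 α-actinins within a mouse does not depend on how libraries are scaled. Actn2 over Actn3 was 0.325, 0.441, 0.252, 0.177, 0.211 and 0.436 in controls 1 to 6. In CKOs 1 to 6 it was 0.685, 0.816, 0.646, 0.201, 0.289 and 0.706, so that 4 CKOs stood above all controls and CKO 4 and 5 stood among the controls. The difference of the log2 ratio Actn3 over Actn2 was -0.78 (exact permutation test over 924 assignments, two-sided P = 0.0866). Actn2 made up 15.0% to 30.6% of the summed FPKM of Actn2 and Actn3 in controls and 16.7% to 44.9% in CKOs. The sum itself overlapped, at 737 to 955 FPKM in controls and 680 to 984 in CKOs. With each mouse left out in turn the difference lay between -1.04 and -0.63, and the exact permutation P was 0.0216 without CKO 4 and 0.0606 to 0.158 without each of the others.

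**Figure D3:**
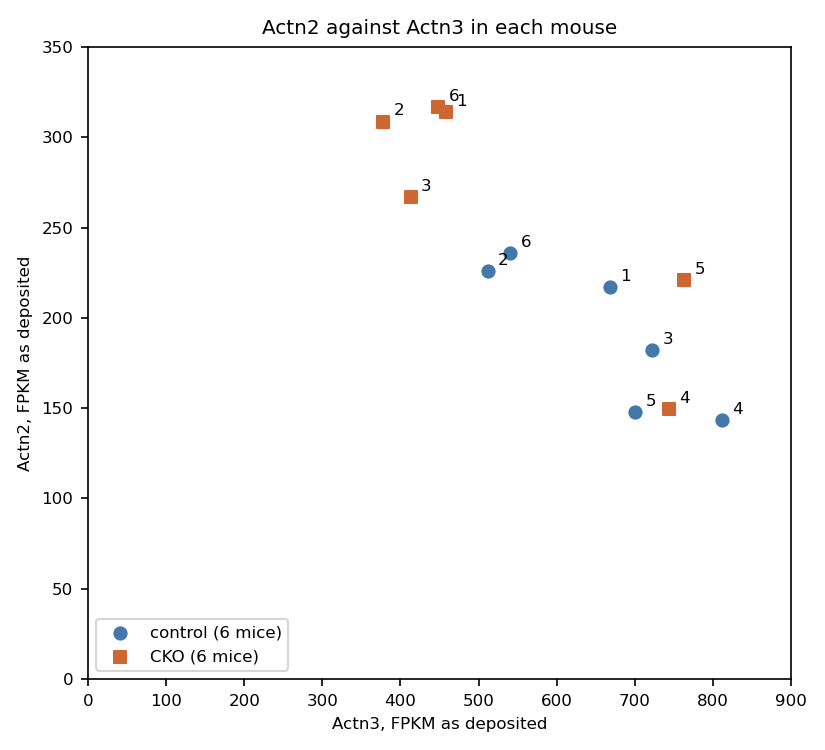
Actn2 against Actn3 in FPKM as deposited, 1 point per mouse, for 6 controls and 6 CKOs. CKO 1, 2, 3 and 6 lie apart from the controls, with at least 267 FPKM of Actn2 and at most 458 of Actn3, and CKO 4 and 5 lie within the control range on both axes.

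Fiber-type transcripts differed between mice as well. Slow-fiber genes, 10 in the list with Myh7 (slow myosin heavy chain), Tnni1 (slow troponin I) and Atp2a2 (slow calcium pump), summed to at most 95.8 FPKM in controls. In CKOs 1 to 6 they summed to 210, 75.9, 152, 66.8, 69.6 and 395 FPKM. CKO 1, 3 and 6 were thus above all controls. CKO 2, which had the highest ratio of Actn2 to Actn3, was within the control range with a Myh7 level of 0.438 FPKM. Myh1, a fast myosin heavy chain, was 2630.5, 1815.8, 2569.9 and 2565.2 FPKM in CKO 1, 2, 3 and 6. It was 1532.3 and 1377.9 FPKM in CKO 4 and 5 and at most 1138.8 in controls. Myh1 was thus higher in CKO 1, 2, 3 and 6 than in CKO 4 and 5. Unlike for the α-actinins, CKO 4 and 5 also lay above every control for Myh1. All 6 CKOs lay above all 6 controls for 2.23% of all tested genes as deposited. Myh2, another fast myosin heavy chain, did not set CKO 2 above CKO 4. Its level in CKO 2 was 117.1 FPKM, below CKO 4 at 122.7 and within the control range. For the fiber lists below, the shares of all tested genes at the unadjusted threshold were 18.1% higher and 1.76% lower as deposited. After scaling they were 6.62% and 7.44%. Of the 10 slow-fiber genes 8 were higher in CKOs at the unadjusted threshold as deposited, 0 at the adjusted one and 0 lower. After scaling 7 of them were higher and 1, Myl3, was lower (-0.70, limma unadjusted P = 0.0310). The 3 with the smallest P as deposited were Myoz2 (calsarcin-1, log2 fold change 0.90), Atp2a2 (0.87) and Tpm3 (slow tropomyosin, 1.18). Of 12 fast-fiber genes 3 were higher as deposited, the fast myosin heavy chains Myh1 (1.05, limma adjusted P = 0.00733), Myh4 (0.77) and Myh2 (1.18). After scaling these 3 were higher and 4 were lower, Tnni2 (-0.49), Tnnc2 (-0.55), Tnnt3 (-0.53) and Pvalb (-0.58). None of these 4 passed the adjusted threshold. The median log2 fold change of the 12 was -0.08 as deposited and -0.27 after scaling. Of 11 tested genes of developing fibers, 6 were higher and none lower as deposited, among them the acetylcholine receptor subunit Chrna1 (0.81) and embryonic myosin Myh3 (2.67), both past the adjusted threshold, and Ncam1 (0.94). After scaling 5 were higher and 1, Actc1, was lower (-0.72, limma unadjusted P = 0.0224), and none passed the adjusted threshold. The part of fiber-type composition in the α-actinin values was not tested. The 4 heart markers Myh6, Nppa, Myl7 and Nppb summed to 0.185 to 0.512 FPKM in controls and 0.234 to 3.03 in CKOs, with Myl7 and Nppb listed at 0 in all mice.

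The PDZ-LIM genes among the 10, Ldb3, Pdlim3 and Pdlim5, showed no difference past either threshold in the comparison of all 12 mice, as deposited or scaled. Ldb3 codes for ZASP (Cypher), which binds α-actinin through its PDZ domain, and lies at chr14:34526603-34588682 on the minus strand. It ranged from 119 over a median of 137 to 178 FPKM in controls and from 126 over 147 to 169 in CKOs. These ranges nearly coincide, and the log2 fold change was 0.04 (-0.21 to 0.28, limma, unadjusted P = 0.764) as deposited and -0.15 (-0.35 to 0.04, unadjusted P = 0.114) after scaling. Ldb3 was also among the least variable of the 10 genes, with a coefficient of variation of 14.7% in controls and 11.4% in CKOs. Its promoter windows hold a CArG match, the motif of serum response factor, which stood in 1.47% of all windows.

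Pdlim3, which codes for the α-actinin-associated LIM protein ALP, lies at chr8:45885461-45919548 on the plus strand. It ranged from 40.7 over 46.9 to 83.1 FPKM in controls and from 48.8 over 52.1 to 103 in CKOs. CKO 6 alone lay above the controls, and the highest control was control 1. Its log2 fold change was 0.18 (-0.26 to 0.63, limma, unadjusted P = 0.393) as deposited and 0.00 (-0.37 to 0.37, unadjusted P = 0.978) after scaling. Pdlim5 codes for ENH, a PDZ-LIM protein that links protein kinase C to the Z-disc, and lies at chr3:142239590-142395696 on the minus strand. It ranged from 121 over 128 to 236 FPKM in controls and from 108 over 145 to 172 in CKOs. Controls 1 and 3 were the 2 highest mice, at 236 and 204 FPKM, and the other controls lay between 121 and 133. Pdlim5 had a log2 fold change of -0.09 (-0.49 to 0.30, limma, unadjusted P = 0.623) as deposited and -0.28 (-0.59 to 0.03, unadjusted P = 0.0694) after scaling. Without CKO 5 the scaled value was -0.34 (unadjusted P = 0.0372), and without control 4 it was -0.33 (unadjusted P = 0.0479). With each of the other 10 mice left out, limma's unadjusted P after scaling stayed above 0.05, at up to 0.168.

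Myotilin, filamin C and synaptopodin-2 bind one another or α-actinin and bundle actin at the Z-disc. Myot, at chr18:44334074-44355724 on the plus strand, ranged from 233 over 252 to 333 FPKM in controls and from 250 over 282 to 319 in CKOs. All 6 CKO values lay inside the control range, and the log2 fold change was 0.06 (-0.21 to 0.32, limma, unadjusted P = 0.647) as deposited and -0.13 (-0.32 to 0.06, unadjusted P = 0.173) after scaling.

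Flnc, which codes for the muscle filamin, lies at chr6:29433256-29461883 on the plus strand. It ranged from 21.7 over 31.5 to 38.9 FPKM in controls and from 23.5 over 32.8 to 65.7 in CKOs. The highest value was that of CKO 6, and the next CKO stood at 40.3 FPKM, so most of the difference between the means (30.7 ± 7.55 and 37.0 ± 15.3 FPKM) rested on 1 mouse. Between the groups the log2 fold change was 0.22 (-0.26 to 0.70, limma, unadjusted P = 0.342) as deposited and 0.03 (-0.45 to 0.51, unadjusted P = 0.885) after scaling. Without CKO 6 the deposited value was 0.04 (unadjusted P = 0.838).

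Synpo2 codes for synaptopodin-2 (myopodin), an actin-bundling partner of filamin C, and lies at chr3:123076519-123236149 on the minus strand. The 250 bases before its RefSeq start, chr3:123236150-123236399 on the minus strand, hold 1 match to the MEF2 motif, 236 to 227 bases before the start, and 2 E-boxes, in capitals.
Synpo2: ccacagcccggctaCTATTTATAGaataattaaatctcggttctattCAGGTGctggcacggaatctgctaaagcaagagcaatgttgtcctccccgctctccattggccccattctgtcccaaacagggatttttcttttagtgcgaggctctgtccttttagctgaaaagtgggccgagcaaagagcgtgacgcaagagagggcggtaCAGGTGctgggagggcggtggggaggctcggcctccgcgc
A MEF2 match stood in 2.92% of all windows. No match to CArG or MCAT was found in it.

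Synpo2 ranged from 13.9 over 17.4 to 19.8 FPKM in controls and from 11.2 over 14.1 to 18.9 in CKOs, with CKO 1 and 2 below all controls at 11.2 and 12.6 FPKM. The means were 17.0 ± 2.09 and 14.6 ± 2.71 FPKM. The log2 fold change was -0.23 as deposited (-0.50 to 0.04, limma, unadjusted P = 0.0908, adjusted P = 0.324). After scaling it was -0.42 (-0.73 to -0.10, unadjusted P = 0.0134, adjusted P = 0.205), and it kept an unadjusted P below 0.05 with each of the 12 mice left out. The deposited value reached an unadjusted P of 0.0369 without control 1 and 0.0225 without CKO 4. Synpo2 is also made by smooth muscle. Smooth muscle markers, 6 genes such as Myh11 and Acta2, summed to 17.0 to 26.5 FPKM in controls and 18.1 to 24.1 in CKOs, and none of the 6 was called in either direction on either scale.

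Tcap codes for telethonin, which caps the amino-terminal ends of titin, and lies at chr11:98383811-98384953 on the plus strand. It ranged from 355 over 460 to 542 FPKM in controls and from 322 over 421 to 547 in CKOs, with CKO 1 and 6 below all controls at 331 and 322 FPKM and CKO 4 above them at 547. For Tcap the log2 fold change was -0.13 (-0.46 to 0.20, limma, unadjusted P = 0.426) as deposited and -0.31 (-0.67 to 0.05, unadjusted P = 0.0821) after scaling. Without control 3, CKO 4 or CKO 5 the scaled value lay between -0.41 and -0.37 with an unadjusted P of at most 0.0482. With each of the other 9 mice left out, limma's unadjusted P after scaling stayed above 0.05, at up to 0.193. Titin itself could not be set beside it, because Ttn was listed at 0 in 3 controls and 5 CKOs and at 639 to 871 FPKM in the others.

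Nexn, which codes for nexilin, an actin-binding protein of the Z-disc, lies at chr3:152236982-152266350 on the minus strand. It ranged from 28.1 over 34.2 to 39.7 FPKM in controls and from 22.0 over 29.9 to 45.7 in CKOs. CKOs spread to both sides, with 3 of 6 below and 2 of 6 above all controls, and the coefficient of variation was 13.2% in controls and 28.0% in CKOs. Nexn had a log2 fold change of -0.11 (-0.46 to 0.23, limma, unadjusted P = 0.493) as deposited and -0.30 (-0.67 to 0.06, unadjusted P = 0.0976) after scaling. Without control 1 the scaled value was -0.40 (unadjusted P = 0.0242), and without CKO 5 it was -0.41 (unadjusted P = 0.0226).

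**Figure D4:**
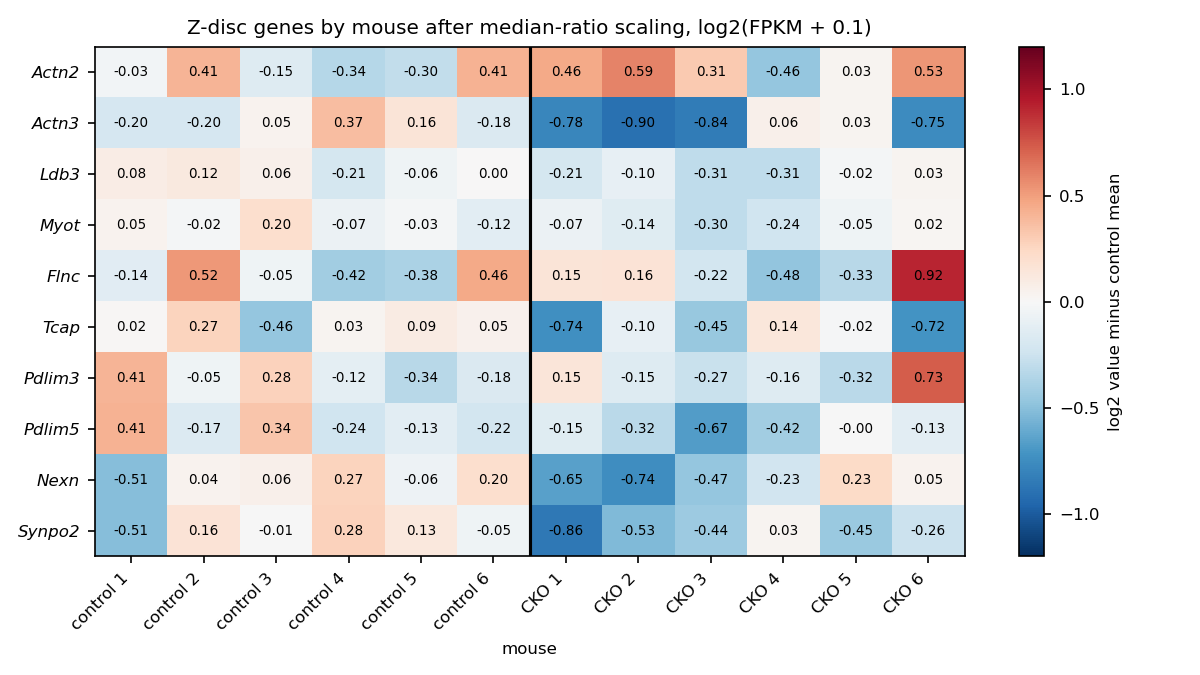
log2(FPKM + 0.1) of the 10 Z-disc genes (rows) in the 12 mice (columns) after median-ratio scaling, minus each gene's mean over the controls. The lowest value is -0.90 (Actn3 in CKO 2) and the highest 0.92 (Flnc in CKO 6). As deposited, which is not plotted here, Ldb3 and Myot deviate least from their means over the mice (mean absolute deviation 0.147 and 0.172). Actn3 deviates most (0.344).

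Relative to Actn2 in the same mouse, each of the other 9 genes had a lower mean log2 ratio in CKOs. Actn2 had the largest log2 fold change of the Z-disc genes as deposited (0.43, with Flnc next at 0.22). The shared direction of the 9 differences follows from this and is not a separate result. None of the 9 differences passed P below 0.05 in the exact permutation test over 924 assignments, without adjustment over the 9. Besides the -0.78 of Actn3, the differences were -0.66 for Synpo2 (P = 0.0736, exact), -0.56 for Tcap (P = 0.110, exact) and -0.55 for Nexn (P = 0.110, exact). They were -0.53 for Pdlim5 (P = 0.0758, exact), -0.40 for Ldb3 (P = 0.0628, exact) and -0.38 for Myot (P = 0.102, exact). The smallest were -0.25 for Pdlim3 (P = 0.331, exact) and -0.21 for Flnc (P = 0.175, exact). The 9 ratios share Actn2 and are not independent of one another. With each mouse left out in turn, the exact permutation P was below 0.05 for 7 of the 9 ratios without CKO 4, 3 without control 6, 2 each without control 2 and CKO 5, 1 without CKO 6, and none without each of the other 7 mice. CKO 4 has the least Actn2 of the CKOs, the denominator that all 9 ratios share, and each of the 9 differences was further from 0 without it, so this count is no independent support. Without CKO 2 the P values ran from 0.115 to 0.543 (exact permutation tests).

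Flnc and Actn2 kept a nearly fixed ratio in controls, a pair chosen after the values were seen. Flnc over Actn2 was 0.147 to 0.172 in the 6 controls (mean 0.159 ± 0.0109), with an SD of the log2 ratio of 0.098. That was the 2nd smallest SD of a log2 ratio to Actn2 among 7968 genes with a mean of at least 1 FPKM, where the median was 0.409. In CKOs the ratio ran from 0.109 to 0.207, the SD was 0.34, and Flnc took place 827. In 4 of 6 CKOs the ratio was below all controls, and in CKO 6 it was above them. With each mouse left out in turn, the difference of the log2 ratio lay between -0.33 and -0.15, and the exact permutation P was 0.0130 without CKO 6, the mouse above the controls, and 0.134 to 0.333 without each of the others. The difference in spread between the groups was not tested.

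Likeness over the 12 mice was measured as the mean absolute difference of log2(FPKM + 0.1) after each gene was centred on its own mean, among 7968 genes. Near to Actn2 was Gnb2 (0.159), and the genes nearest to Actn3 were Trim54, which codes for the muscle ring finger protein MuRF3 (0.119), and Jak2 (0.125). The nearest to Ldb3 were Dnm1l (0.0553) and Mcts1 (0.0583), and to Myot Ipo7 (0.0585) and Bnip2 (0.0624). For Flnc they were Armcx3 (0.196) and Ank2 (0.203), for Tcap Uqcrq (0.125) and Atp5sl (0.132), and for Synpo2 Zfhx3 (0.107) and Mdm2 (0.118). For Pdlim3 they were Xbp1 (0.146) and D19Bwg1357e (0.147), for Pdlim5 Morf4l2 (0.109) and Cab39 (0.113), and for Nexn Arfgef1 (0.0987) and Rprd1a (0.102). Among the Z-disc genes themselves, Ldb3 and Myot were closest (0.0759), Myot being at place 5 for Ldb3 and Ldb3 at place 15 for Myot. Actn2 was at place 3 for Flnc (0.203), and Myot at place 12 for Pdlim5 (0.130). These distances also hold what a whole library shares, such as its scale.

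Of 34 other genes of the Z-disc and its surroundings 32 were tested. As deposited, the unadjusted threshold was passed by 8 in the higher and 2 in the lower direction, with a median log2 fold change of 0.12. Of all tested genes 18.1% were higher and 1.76% lower there, with a median of 0.18. After scaling 6 were higher and 3 lower, with a median of -0.07. Of all tested genes 6.62% were then higher and 7.44% lower, with a median of 0.01. Sync, which codes for the intermediate filament protein syncoilin, passed the adjusted threshold as deposited (6.91 ± 0.847 to 10.7 ± 2.09 FPKM, log2 fold change 0.61, limma adjusted P = 0.0393) and not after scaling (0.42, adjusted P = 0.105). Des, the intermediate filament desmin that rings the Z-disc, was 225 ± 18.4 FPKM in controls and 319 ± 58.7 in CKOs (log2 fold change 0.49, limma unadjusted P = 0.00188, adjusted P = 0.0634). After scaling its log2 fold change was 0.30 (limma unadjusted P = 0.0199, adjusted P = 0.241). Ankrd1, a stretch-responsive ankyrin repeat protein, was 5.68 ± 2.26 and 32.8 ± 28.0 FPKM (2.02, unadjusted P = 0.00192, adjusted P = 0.0639), and 1.83 after scaling (adjusted P = 0.111). Its CKO values ran from 4.16 FPKM in CKO 5 to 79.9 in CKO 6. Capza2, a subunit of the capping protein CapZ that closes barbed ends at the Z-disc, was 105 ± 20.2 and 84.0 ± 13.8 FPKM (-0.32, limma unadjusted P = 0.0340, adjusted P = 0.211) and passed the adjusted threshold after scaling (-0.51, adjusted P = 0.0318). Trim54 was 41.0 ± 6.29 and 32.4 ± 9.40 FPKM (-0.37, unadjusted P = 0.0375, adjusted P = 0.221), and -0.56 after scaling (adjusted P = 0.0875).

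**Figure D5:**
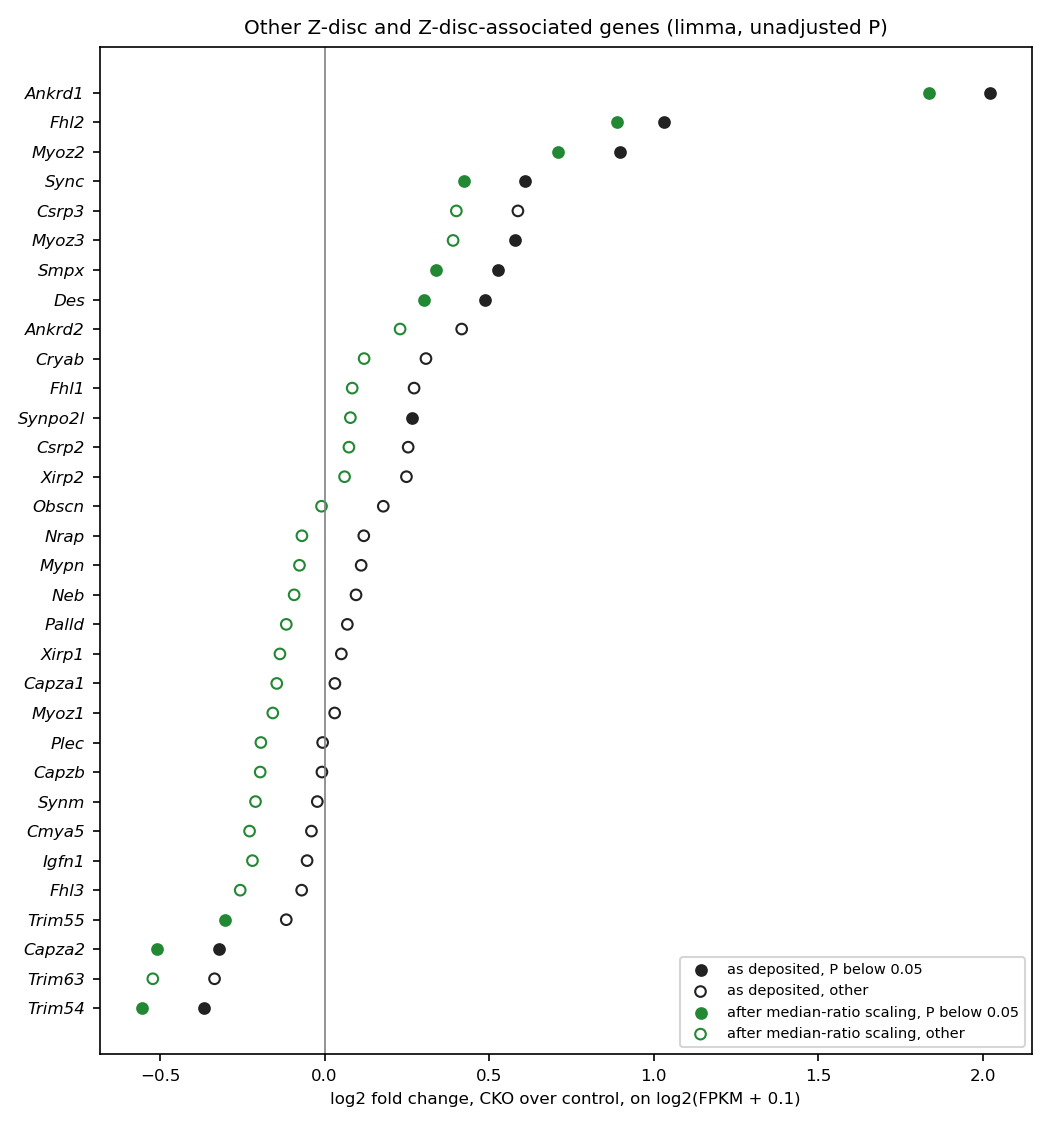
The log2 fold change (CKO minus control) of 32 other genes of the Z-disc and its surroundings, as deposited and after median-ratio scaling. Filled points have an unadjusted limma P below 0.05. Ankrd1 has the highest value, at 2.02 as deposited and 1.83 after scaling. Trim54 has the lowest, at -0.37 and -0.56.

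Of 12 relatives of the Z-disc genes from the same families, 3 passed the unadjusted threshold in the higher direction and 0 in the lower as deposited. For this list and the next, the shares of all tested genes were 18.1% higher and 1.76% lower as deposited. After scaling they were 6.62% and 7.44%. Pdlim2, a PDZ-LIM relative, passed the adjusted threshold on both scales (log2 fold change 1.37, limma adjusted P = 0.0188, and 1.25, adjusted P = 0.0278), at the low level of 0.157 ± 0.140 FPKM in controls and 0.510 ± 0.0974 in CKOs. Synpo2l (0.26, unadjusted P = 0.0295) and Pdlim4 (0.81, unadjusted P = 0.0367) passed the unadjusted threshold as deposited only. The nonmuscle α-actinins were low beside Actn2 and Actn3, with Actn1 at 1.31 and 1.32 FPKM and Actn4 at 3.90 and 4.62 FPKM in controls and CKOs, and neither was called. After scaling 1 relative passed the unadjusted threshold in each direction. Of 10 genes of the chaperone-assisted turnover of filamin, 2 were higher and 0 lower as deposited: Hspb8, the small heat shock partner of Bag3 (0.63, limma unadjusted P = 0.00384, adjusted P = 0.0844, and 0.44 after scaling, unadjusted P = 0.00854), and the co-chaperone Dnajb6 (0.30, unadjusted P = 0.0269). Bag3 itself was 13.7 ± 1.48 and 16.1 ± 4.34 FPKM (0.19, unadjusted P = 0.243). After scaling 1 was higher and 1 lower, and Sqstm1, the autophagy receptor p62, passed the adjusted threshold in the lower direction (-0.48, adjusted P = 0.0416).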

How the data were processed

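Tibialis anterior RNA of 6 control and 6 Smyd1 CKO mice was analysed, grouped by the labels. The authors depleted ribosomal RNA, trimmed adapters, aligned reads to mm9 with bowtie2 and TopHat2 2.0.10 allowing at most 2 mismatches, kept uniquely mapped reads, and computed the deposited FPKM with Cufflinks 2.1.1. The annotation is not given in the sources used here. Reads shared by near-identical copies were thus not counted. Each file listed 23950 rows, of which 27 carried a date in place of a symbol and were dropped.

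FPKM as deposited were compared with limma 3.58.1 in R 4.3.3 on log2(FPKM + 0.1), with an intensity trend, for genes of at least 0.1 FPKM in at least 6 mice, with Benjamini-Hochberg adjustment. Fold changes are on this scale and understate those of low genes. Median-ratio factors ran from 0.855 to 1.15. Ratios to Actn2 were compared by exact permutation tests, two-sided, whose smallest P is 0.00216. The study's count-based DESeq comparison was not repeated, since the files hold no counts. No confidence interval from counting was given, since the depth in reads is unknown. Alternatives were median-ratio scaling, quantile normalization, no filter or one at 1 FPKM, a pseudocount of 1, the replicate number as a block (also with scaling), no trend, sample weights, and each mouse left out in turn, as deposited and scaled. The code was tested on simulated data.

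Positions came from GENCODE M21 (GRCm38), by symbol, for 95.2% of genes, and promoters from RefSeq (GRCm38.p6), which held entries for 6 of the 10 genes. The files carry no positions and were made on another build. Named genes are the 10 Z-disc genes, Smyd1, from each list up to 3 genes with the smallest P in each direction among those past the unadjusted threshold, and the 2 genes nearest to each Z-disc gene, of which 1 is not reported here. Genes named beyond this rule, such as Myh7, Tnni1, Myl3, Tnni2, Tnnc2, Tnnt3, Pvalb, Actc1, Myl7, Nppb, Ttn, Actn1, Actn4, Pdlim7, Bag3 and Sqstm1, were chosen after their values were seen. Some genes stand in more than 1 list. The Z-disc genes and all lists were chosen with earlier results of these data known.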

Additional observations from a re-analysis of the deposited data

How the results depend on the processing

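The adjusted calls among the 10 Z-disc genes were 0 in both directions under every alternative run (limma). At the unadjusted threshold the 1 higher gene became 0 under median-ratio scaling, quantile normalization, no filter on low values and no intensity trend, and 0 to 1 with single mice left out, also after scaling. The 0 lower genes became 2 under median-ratio scaling, quantile normalization, the replicate block and sample weights, 3 under median-ratio scaling with the replicate block, 0 to 2 with single mice left out, and 2 to 5 after scaling (5 without CKO replicate 5). The log2 fold change of Actn2 lay between 0.25 and 0.53 over the alternatives with all 12 mice, and between 0.18 and 0.59 with single mice left out, as deposited or scaled. The labels do not say whether same-numbered mice were paired in any way. Correlations of their deviations were -0.0861 to 0.164, with a mean of 0.0404, against a mean of -0.00879 for other pairs. Of the 12 samples 5 were closest to their own number. These values do not settle whether the mice were paired. With the replicate block, the unadjusted limma P was 0.00202 for Actn2 (adjusted P = 0.0605), 0.0342 for Actn3 and 0.0392 for Synpo2. As pairs, the log2 ratios to Actn2 of Actn3 (-0.78), Synpo2 (-0.66), Nexn (-0.55) and Pdlim5 (-0.53) reached 0.03125 in an exact sign-flip test, the smallest P that 6 pairs can give. The other 5 ratios did not. With single mice left out, the ratio differences lay between -1.04 and -0.63 for Actn3, -0.51 and -0.34 for Ldb3, -0.50 and -0.30 for Myot, -0.33 and -0.15 for Flnc, -0.79 and -0.42 for Tcap, -0.37 and -0.15 for Pdlim3, -0.65 and -0.43 for Pdlim5, -0.70 and -0.39 for Nexn, and -0.89 and -0.53 for Synpo2. Over all tested genes the unadjusted threshold was passed by 2300 in the higher and 224 in the lower direction, against 841 and 944 after median-ratio scaling, 810 and 837 after quantile normalization, 855 and 947 after scaling with the block, and 2442 and 250 with the block alone. With sample weights 3704 were higher. The adjusted counts of 257 and 34 became 97 and 90, 101 and 68, 91 and 83, and 272 and 40 under the same 4 settings, 1400 and 115 with sample weights, and 170 higher without a filter. They ran from 84 to 1067 and from 18 to 69 with single mice left out, both highest without control replicate 1. Among the 10 Z-disc genes and the 9 ratios to Actn2 no direction of a call was reversed, and for other genes this was not checked. Causes of these changes were not tested. The depth in reads is unknown, so counting error could not be given.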
